A study of Mus musculus with 6 samples.

Results

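A set of 9 genes of the insulin-like growth factor (IGF) system was followed in endothelial cells sorted from mouse glioma and from normal brain: the binding proteins Igfbp3, Igfbp4, Igfbp5, Igfbp6 and Igfbp7, the ligands Igf1 and Igf2, and the receptors Igf1r and Igf2r. They are 9 of the 24421 gene symbols in the deposited files, chosen by symbol with their values in these libraries already known, so their differences between the groups are given as a description, with no test. Both groups are C57BL/6 mice. The 3 normal libraries (N1, N2 and N3, by replicate) come from endothelium of normal brain. The 3 glioma libraries (G1, G2 and G3) come from endothelium of tumors taken 3 weeks after GL26l glioma cells were injected into the brain. No age, no other treatment and no number of animals per library is given in the sources used here, and the tumor is a single implanted cell line. The design text calls the RNA sets independent, and the column headers of N2 and N3 number their brains 1 and 2. Nothing ties the other 4 libraries to separate animals, so the spread between libraries may be partly technical.

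IGF-1 and IGF-2 are secreted peptides that act through the receptor tyrosine kinase IGF1R, which feeds the PI3K-AKT and RAS-MAPK pathways. IGF2R, also the cation-independent mannose 6-phosphate receptor, lacks a kinase domain and clears IGF-2 from the cell surface. The classical binding proteins hold the ligands outside cells and limit or prolong their action, and proteases such as PAPP-A, which cuts IGFBP-4, set the ligands free. IGFBP-7 binds IGFs weakly and is known as a vascular secreted protein. Binding proteins are common products of endothelium, and Igf1 is a known product of microglia and macrophages.

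Values are deposited log2 values per gene. From the values themselves they read as log2(x + 1) of expression values quantile-normalized over the 6 libraries, so read depth is unknown and no counting interval is given. The libraries were made with a 3′ end kit in which the read number does not scale with transcript length, so levels of different genes are compared on the same scale. Genes above 0 numbered 7446 to 13108 per library, and the lowest value above 0 ran from 0.22 in N3 to 7.43 in N1. A 0 in N1 therefore spans a wide range of possible levels. N1 stood apart from the other normal libraries: across the 5880 genes above 0 everywhere, N2 and N3 had a Pearson's r of 0.97, and N1 reached at most 0.60 with either (a correlation over genes, not over replicates). N1 had a higher r with G1 (0.655) and G2 (0.668) than with either normal library. G1 had an r of 0.672 with G2 and 0.543 with G3, against 0.749 between G2 and G3. N2 and N3 share a date-like number in their deposited names, as do G2 and G3, and none is shared across groups, so such a batch and the group cannot be told apart. Some patterns within groups follow these numbers. Igfbp4 was low only in N2 and N3, and Igfbp3 and Igfbp7 were highest in G2 and G3. For these patterns, and for the r of 0.97, such a batch cannot be told apart from other differences between libraries. All 12 endothelial markers examined were above 0 in every library, and together they held 1.93% to 3.00% of the library sum in N1 to N3 and 1.03% to 2.05% in G1 to G3, lowest in G1. The highest of them, Egfl7, Pecam1 and Flt1, lay between 14.07 and 17.62 in all libraries. Egfl7 was wholly lower in glioma, by a gap of 0.24, as were 6.37% of all genes tested. The other endothelial markers did not move together. Some were lowest in N1 and G1, and some were highest in N1. In bulk RNA, fewer cells of a type and less RNA per cell cannot be told apart.

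The promoters of Igfbp4, Igfbp3 and Igfbp7 are shown because the results turn on these binding proteins, and because Igfbp3 and Igfbp7 were both highest in G2 and G3 while Igfbp4 followed another pattern. Each line is the 250 bases before the RefSeq start site, 5′ to 3′ on the gene's strand, in build GRCm38.p6. For Igfbp4 and Igfbp3 this start site lies 1239 and 1575 bases inside the RefSeq span of the gene, while for Igfbp7 it is at the edge of the span. The windows lie at chr11:99040994-99041243 on the plus strand for Igfbp4, at chr11:7213924-7214173 on the minus strand for Igfbp3 and at chr5:77408046-77408295 on the minus strand for Igfbp7. Capitals mark a TATA box (TATAAA), a GC box (GGGCGG) or the hypoxia response core in the form ACGTG, each searched on both strands.
Igfbp4: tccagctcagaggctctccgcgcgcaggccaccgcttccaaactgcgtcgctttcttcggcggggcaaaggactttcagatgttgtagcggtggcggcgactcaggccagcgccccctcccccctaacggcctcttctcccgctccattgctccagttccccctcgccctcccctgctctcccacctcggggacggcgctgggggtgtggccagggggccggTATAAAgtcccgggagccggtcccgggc
Igfbp3: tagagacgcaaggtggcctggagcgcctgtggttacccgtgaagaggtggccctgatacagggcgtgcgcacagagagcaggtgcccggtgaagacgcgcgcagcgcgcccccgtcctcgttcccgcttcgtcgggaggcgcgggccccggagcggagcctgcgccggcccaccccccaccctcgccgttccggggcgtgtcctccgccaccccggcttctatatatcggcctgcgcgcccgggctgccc
Igfbp7: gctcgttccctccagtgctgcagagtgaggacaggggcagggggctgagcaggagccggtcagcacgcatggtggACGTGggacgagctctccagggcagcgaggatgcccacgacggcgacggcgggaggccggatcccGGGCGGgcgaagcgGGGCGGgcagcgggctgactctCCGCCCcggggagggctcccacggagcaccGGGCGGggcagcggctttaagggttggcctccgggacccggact

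The Igfbp4 window held a TATA box that begins at position -28 from the start site, while the Igfbp7 window held 4 GC boxes and 1 ACGTG, at position -175, and no TATA box. The Igfbp3 window held none of the 3 motifs in these letters. Over all 32851 promoter windows of this length, 12.4% held the TATA box, 32.7% the GC box and 16.6% ACGTG. The GC content was 69.2% for Igfbp4, 73.2% for Igfbp3 and 74.0% for Igfbp7, against a median of 52.4% over all windows, and CpG pairs numbered 22, 32 and 26 against a median of 6. These matches are descriptions of the sequence, and no factor binding was measured.

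Igfbp4, the binding protein that PAPP-A cleaves, separated N2 and N3 from the other 4 libraries. Its log2 value was 12.43, 7.55 and 7.54 in N1 to N3 and 12.17, 11.996 and 11.80 in G1 to G3. N1 was the highest of all 6 libraries, so the groups overlapped, although the glioma libraries lay within 0.37 of each other. The means were 9.17 ± 2.82 (SD, n = 3) in N1 to N3 and 11.99 ± 0.18 (SD, n = 3) in G1 to G3, a log2 difference of 2.82 (SE 1.20). Without N1 it was 4.44. By rank from the top of the library, Igfbp4 stood at 500 in N1, at 7121 and 7130 in N2 and N3, and at 620, 707 and 843 in the glioma libraries.

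The excess of N1 over the higher of the other normal libraries was 4.88 for Igfbp4, and 40 of the 5880 genes above 0 in all libraries had a larger one. Igfbp5 was among those 40, with an excess of 6.31. In N1, Igfbp3, Igfbp7 and Igf1r lay slightly below both N2 and N3.

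The 5 genes closest to Igfbp4 were found by the root mean square difference of log2 values over the 6 libraries, after removing each gene's own mean. They were Pcdhb22 (0.30), a clustered protocadherin, Gm6654 (0.42), Ecscr (0.45), an endothelial membrane protein, Mob3a (0.46) and S100a6 (0.52), a calcium-binding protein, among 5879 genes compared. Ecscr had 11.94, 7.24 and 7.68 in N1 to N3 and 11.12, 11.07 and 10.68 in G1 to G3. S100a6 had 13.06, 8.09 and 7.72 against 11.56, 11.77 and 11.11. In all 5 genes N1 was far above the other normal libraries, which follows from their choice by likeness to Igfbp4 in the same libraries. Pcdhb22 was at 2.84 in N2, the lowest value above 0 of that library. Of the other members, 4 were above 0 in all libraries and could be compared, and their distances were larger: 1.99 for Igfbp3, 2.14 for Igfbp5, 2.17 for Igf1r and 2.79 for Igfbp7. Pcdhb22 belongs to a cluster of similar genes, and how reads shared between such genes were assigned is not known.

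**Figure D1:**
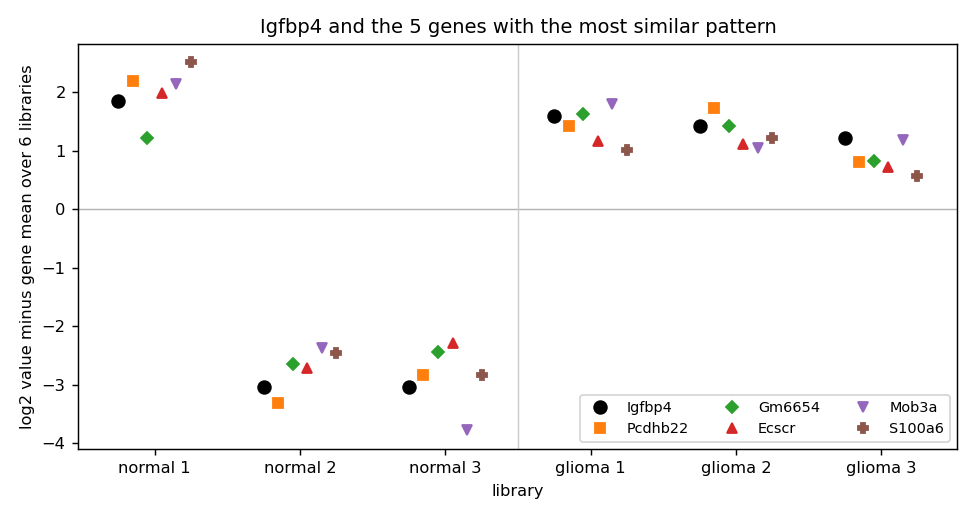
Log2 value of Igfbp4 (black circles) and its 5 closest genes in each of the 6 libraries, each gene shown relative to its own mean over the libraries. N2 and N3 lie below the line at 0 for all 6 genes, and N1 lies above it with the 3 glioma libraries. The 5 genes were picked for this likeness in the same 6 libraries.

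Igfbp3, the main carrier of IGFs in blood, was higher in every glioma library than in every normal library. It stood at 9.85, 9.97 and 9.98 in N1 to N3 and at 10.51, 12.94 and 13.75 in G1 to G3. The normal libraries spanned 0.13 and the glioma libraries 3.24, with G1 only 0.53 above the highest normal library. The means were 9.93 ± 0.07 and 12.40 ± 1.69 (SD, n = 3 each), a log2 difference of 2.47 (SE 0.79), and 2.43 without N1. Its rank from the top was 321 and 134 in G2 and G3 and 2099 to 3104 in the other libraries.

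Igfbp7 was the highest of the 5 binding proteins in 5 of the 6 libraries. It stood at 12.52, 12.81 and 12.85 in N1 to N3 and at 9.99, 14.71 and 16.15 in G1 to G3. G2 and G3 lay above all normal libraries and G1 below them, so the groups overlapped. In G3 its rank from the top was 11. The means were 12.72 ± 0.18 and 13.61 ± 3.22 (SD, n = 3 each), a log2 difference of 0.89 (SE 1.33). The difference was -0.38 without G3 and 2.70 without G1, so its direction rests on single libraries. Pericytes also express Igfbp7. Markers of pericytes and smooth muscle above 0 numbered 11 to 14 of 14 in N1 to N3 and 11 to 13 in G1 to G3, with a summed level of 0.0412% to 0.132% and 0.0616% to 0.104% of the library sum. The highest of them, Rgs5, Abcc9 and Acta2, were at 12.43, 10.58 and 10.86 in G1 and at 10.03, 13.14 and 8.19 in G3. Des, Kcnj8 and Vtn, markers of the same list, were at 0, 0 and 9.33 in G1 and at 9.62, 8.32 and 11.66 in G3, each highest of all 6 libraries in G3, as Igfbp7 was. With Abcc9, they were the only markers of the list highest in G3. Pdgfrb and Cspg4, also of this list, were at 10.95 and 7.31 in G3 and highest in N1, at 11.15 and 8.72. Myh11, a smooth muscle myosin, was at 8.36 in G2, at 0 in G1 and G3 and at 9.07 to 9.49 in N1 to N3. The part of these cells in the Igfbp7 values was not tested.

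Igfbp5 varied more among replicates than between groups. It stood at 9.99, 2.84 and 3.68 in N1 to N3 and at 10.79, 3.82 and 8.27 in G1 to G3. The values in N2 and G2 were the lowest above 0 that those libraries contain, so they are at the limit of detection. The means were 5.50 ± 3.91 and 7.63 ± 3.53 (SD, n = 3 each), a log2 difference of 2.12 (SE 2.63), and 4.37 without N1. Igfbp6, which prefers IGF-2 over IGF-1, was hardly detected. It was at 2.84 and 2.87 in N2 and N3, the former again the lowest value of its library, and listed at 0 in the other 4 libraries, so it did not pass the filter on low values.

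**Figure D2:**
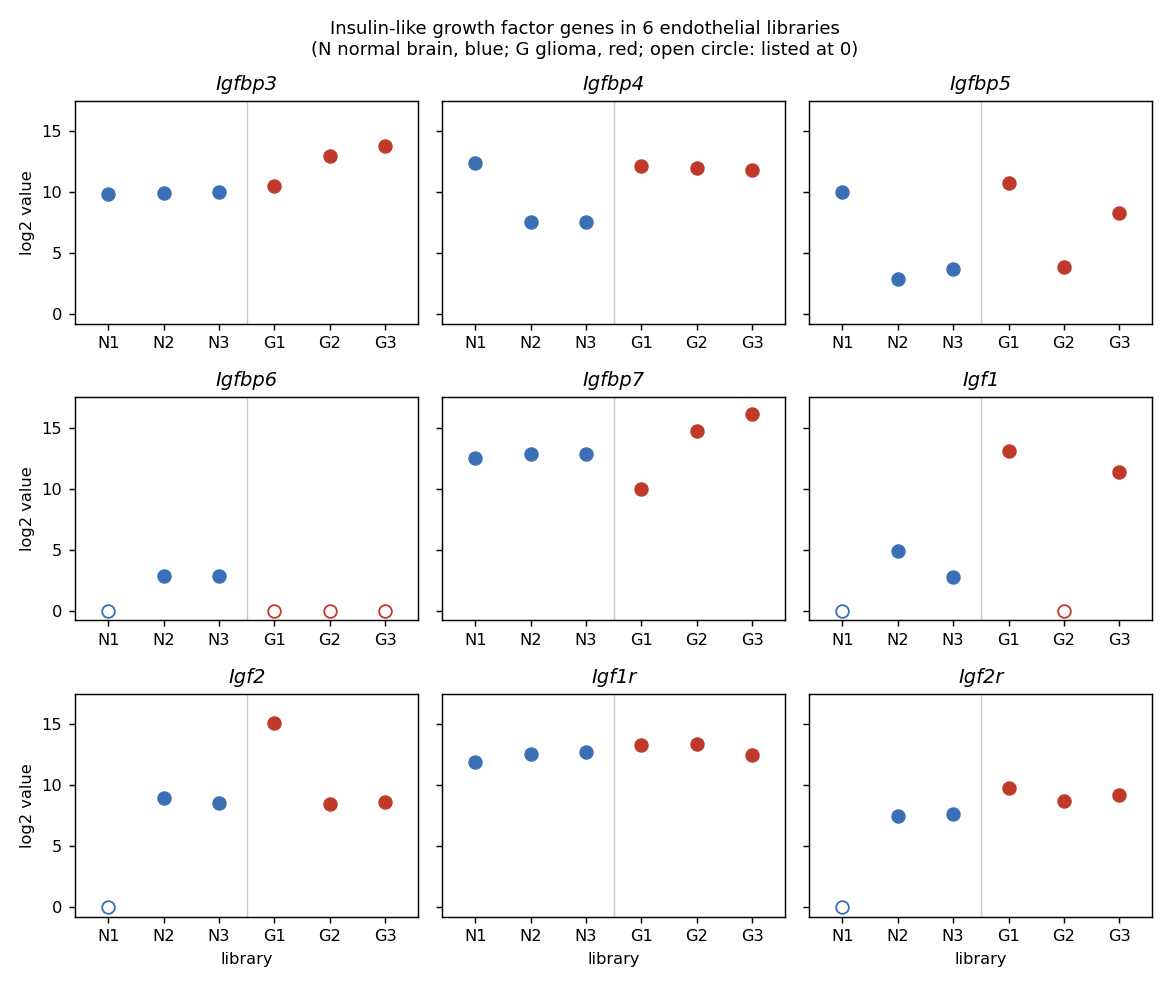
Log2 value of each of the 9 genes (vertical axis) in the 3 normal (N1 to N3, blue) and 3 glioma libraries (G1 to G3, red), with open circles for genes listed at 0. Igfbp4 is low only in N2 and N3, Igfbp3 and Igfbp7 are highest in G2 and G3, and Igf2 is highest in G1 at 15.10.

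The make-up of the binding protein pool was described as the share of each gene in the summed back-transformed values of the 5 members. Igfbp7 held 85.7% and 85.9% of this pool in N2 and N3, but 44.1% in N1. It held 11.5%, 69.1% and 80.4% in G1 to G3. Igfbp4 held 41.3% in N1 and 52.0% in G1, where it was the largest component. Its share was 2.22% and 2.17% in N2 and N3 and 10.5% and 3.95% in G2 and G3. Igfbp3 kept a share of 6.93% to 11.98% in N1 to N3 and 15.3% to 20.3% in G1 to G3, so here too the groups did not overlap.

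The pool itself was similar in size in the 3 normal libraries and G1, at 0.0492% to 0.0794% of the library sum. It reached 0.228% in G2 and 0.531% in G3. Within a library, Igfbp7 exceeded Igfbp4 by log2 differences of 5.26 and 5.30 in N2 and N3 and by 0.09 in N1. It exceeded Igfbp4 by 2.71 and 4.35 in G2 and G3, and lay 2.18 below it in G1 (difference -2.18). These shares are of normalized values and not of reads.

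**Figure D3:**
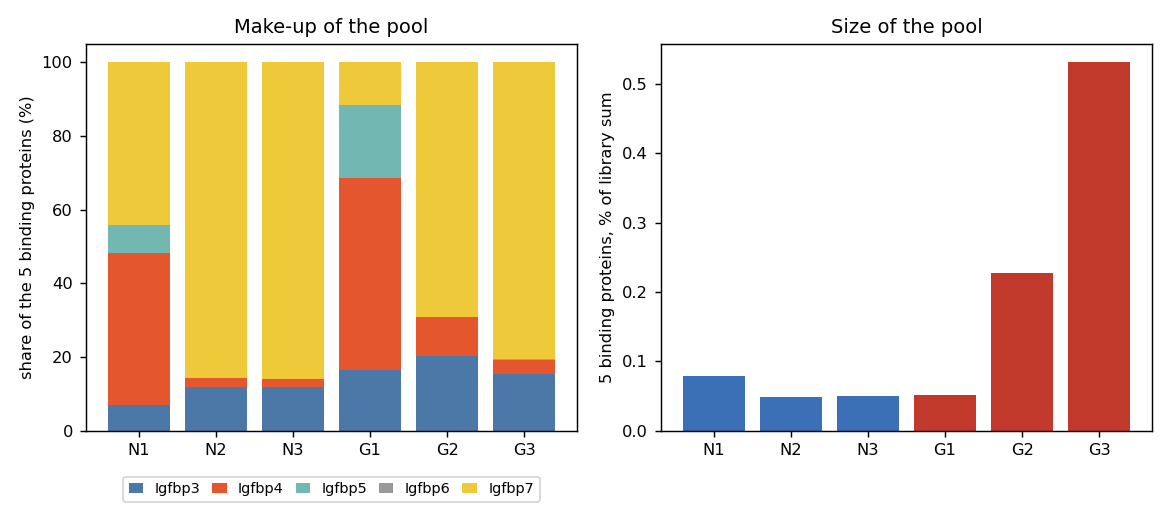
Left, share of each of 5 binding proteins in their summed back-transformed values per library (percent). Right, that sum as a percent of the library sum. Igfbp4 is the largest component in G1, at 52.0%, and the pool is largest in G3, at 0.531%.

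The ligands were high in some glioma libraries and not in others. Igf2 stood at 0, 8.96 and 8.50 in N1 to N3 and at 15.10, 8.48 and 8.61 in G1 to G3. G2 and G3 were thus level with N2 and N3, while in G1 it ranked 36 from the top of the library. Igf1 stood at 0, 4.87 and 2.77 in N1 to N3 and at 13.07, 0 and 11.35 in G1 to G3. It was high in G1 and G3 and listed at 0 in G2. Together the ligands held 0.257% of the library sum in G1, 0.0176% in G3 and at most 0.00309% in each other library. No mean is given for these genes because a 0 in these files may be a missed gene.

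H19 and Igf2os, which lie at the imprinted Igf2 locus, were also highest in G1. H19, the maternally expressed noncoding RNA beside Igf2 on chromosome 7, had no value above 0 in normal brain and stood at 13.32, 9.14 and 0 in G1 to G3. Igf2os, an antisense RNA whose span (142659680 to 142670356, GRCm38.p6) overlaps that of Igf2 (142650768 to 142666816), was at 8.36 in G1 and at 0 elsewhere. Whether the counting used strand is not stated, so reads in the overlap cannot be assigned with certainty. Ins2, the neighbouring insulin gene, was at 0 throughout. Mrpl23, a mitochondrial ribosomal protein gene of the same domain, was at 5.85 to 8.37 in normal and 6.33 to 8.17 in glioma endothelium. The IGF2 mRNA-binding proteins were likewise highest in G1: Igf2bp1 reached 10.81, Igf2bp2 10.12 and Igf2bp3 9.21. Their highest values in any other library were 5.57, 0 and 6.66.

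**Figure D4:**
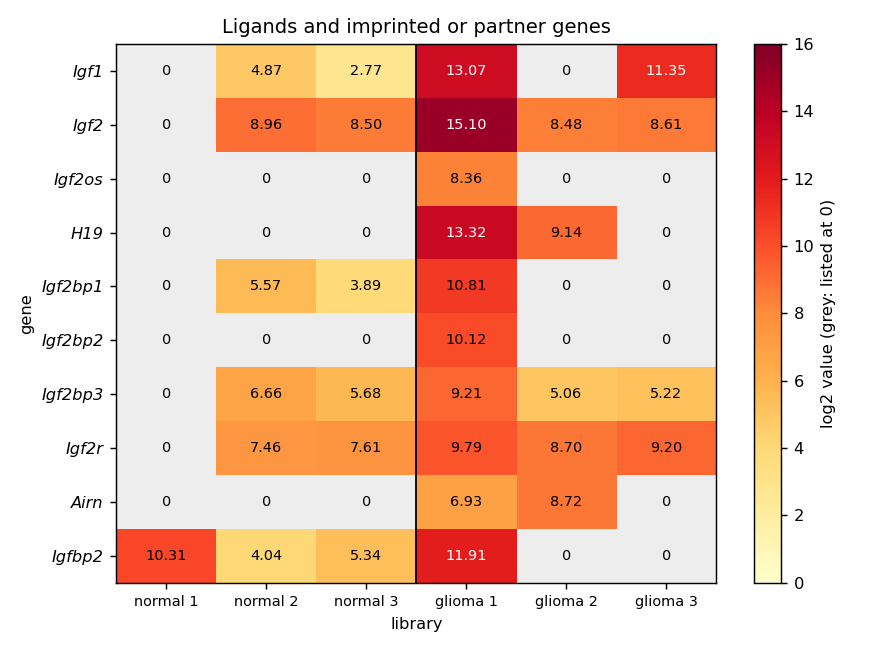
Log2 values (colour and printed number) of the ligands, genes at the Igf2 and Igf2r loci, IGF2 mRNA-binding proteins and Igfbp2 in each library, with grey for genes listed at 0. G1 has a value above 0 for all 10 genes, and 9 of the 10, all but Airn, are at their highest there.

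Markers of other cell types also differed between these libraries. Microglia and macrophage markers above 0 numbered 14 and 16 of 18 in G1 and G3, against 4 in G2 and 6, 6 and 10 in the normal libraries. Their summed level was 0.00168% to 0.0242% of the library sum in normal libraries, 0.00595% and 0.00548% in G1 and G2 and 0.102% in G3. Among the highest of them, C1qa and Cx3cr1 were at 5.25 and 5.13 in G1 and at 11.69 and 9.08 in G3. Adgre1 (F4/80) was at 0 in all 6 libraries and P2ry12 in all but G3, at 7.53. Fibroblast markers above 0 numbered 11 of 12 in G1 and 2 to 8 elsewhere, with a summed level of 0.0273% there and at most 0.0152% in any other library. The highest, Col1a2, Col3a1 and Fbln2, were at 10.93, 9.76 and 6.85 in G1. Fbln2 was higher in N3 (7.44), G2 (8.09) and G3 (7.08) than in G1. Fbln1, Postn, Thy1 and Ogn also had their highest value outside G1, with Postn at 10.95 in N1 and 9.64 in G1. The other fibroblast markers were highest in G1. Choroid plexus markers above 0 numbered 0, 4 and 5 of 9 in N1 to N3 and 5, 2 and 3 in G1 to G3, with summed levels of 0% to 0.00288% and 0.000559% to 0.019%, and Folr1 was at 0 in every library. Ttr, the highest of them, was at 0, 8.32 and 7.79 in N1 to N3 and at 5.25, 0 and 11.58 in G1 to G3. Otx2, a homeobox factor of forebrain and choroid plexus, was at 10.59 in G1, the library with the highest Igf2, and listed at 0 in the other 5 libraries. Kcne2, at 2.87, was the only other marker of this list highest in G1. The part of these cells in the ligand values was not tested.

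Igf2r stood at 0, 7.46 and 7.61 in N1 to N3 and at 9.79, 8.70 and 9.20 in G1 to G3. Every glioma library lay above every normal library, by at least 1.09. Over N2 and N3 alone the difference was 1.70. Airn, the antisense RNA that silences paternal Igf2r and overlaps it on chromosome 17, was at 0 in normal brain and at 6.93, 8.72 and 0 in G1 to G3.

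Igf1r was abundant in all libraries and varied least of the 5 members above 0 throughout. It stood at 11.93, 12.52 and 12.74 in N1 to N3 and at 13.28, 13.37 and 12.45 in G1 to G3, and G3 lay below N2 and N3. The means were 12.40 ± 0.42 and 13.03 ± 0.51 (SD, n = 3 each), a log2 difference of 0.64 (SE 0.47). Insr, the insulin receptor, whose chains can pair with those of IGF1R in hybrid receptors, was at 12.31, 12.53 and 12.44 in N1 to N3 and at 10.54, 11.31 and 11.35 in G1 to G3. Within a library, Igf1r minus Insr was -0.39, -0.01 and 0.30 in N1 to N3 and 2.74, 2.06 and 1.10 in G1 to G3. The receptors were thus near equal in normal endothelium, and Igf1r exceeded Insr in all 3 glioma libraries, with no overlap between the groups. By itself Igf1r overlapped between the groups. Insr was wholly lower in glioma, with a log2 difference of -1.36 (SE 0.44), as were 6.37% of all genes tested. No share over other gene pairs was computed, so how common such a separation is among pairs is not known.

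**Figure D5:**
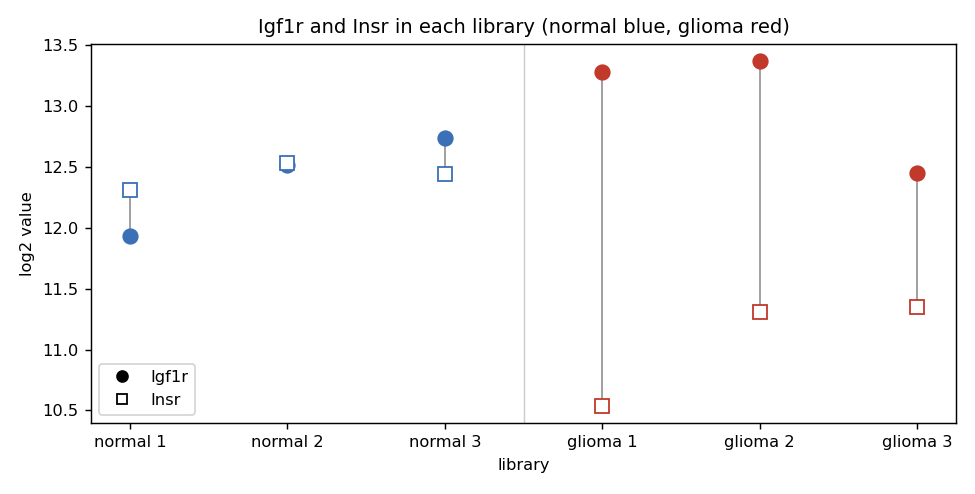
Log2 value of Igf1r (filled circles) and Insr (open squares) in each library, joined by a line. The values are within 0.39 of each other in the 3 normal libraries, and Igf1r lies 1.10 to 2.74 above Insr in the 3 glioma libraries.

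Counted over the members, 2 of 9 (Igfbp3 and Igf2r) were higher in glioma with no overlap between groups and 0 were lower. Over the 11862 genes tested, the share with no overlap was 6.91% higher and 6.37% lower, together 13.3%. Of the 9 members 8 passed the filter on low values and 5 were above 0 in all libraries. Without N1, 4 members (Igfbp3, Igfbp4, Igfbp5 and Igf2r) were wholly higher, where the share over all genes was 14.9%, and Igfbp6, which is outside the tested genes, was wholly lower (20.6% over all genes). For Igfbp5 the closest values were 3.68 in N3 and 3.82 in G2, the latter the lowest above 0 in that library. Igfbp6, at 2.84 and 2.87 in N2 and N3, lay below the lowest values above 0 of G2 (3.82) and G3 (5.22), so a 0 there need not be a lower level. Igfbp3 and Igf2r were joined by Igfbp7 without G1, by Igf1 without G2 and by Igf1r without G3, where the shares over all genes were 15.7%, 11.6% and 12.3%. In each of these 3 cases 0 members were wholly lower, where the shares over all genes were 13.2%, 11.2% and 10.4%. In the limma fit over all genes 0 of 11862 (0%) passed a Benjamini-Hochberg adjusted p of 0.05, the smallest adjusted p was 0.875, and 509 genes had an unadjusted p under 0.05.

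The wider pathway was examined through 88 further genes in 9 lists, of which 65 were tested. None of the 65 passed the limma test in either direction, and 5 had an unadjusted p under 0.05. With limma's array weights 3 passed, Insr, Socs3 and Timp1. The groups did not overlap for 5 higher and 5 lower genes, 15.4% of those tested against 13.3% over all genes. The median log2 difference was 0.22, against 0.05 over all genes tested. Over the 43 genes above 0 in all libraries it was -0.33, against -0.18 for the 5880 such genes.

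Among the remaining binding proteins, Igfbp2 was at 10.31, 4.04 and 5.34 in N1 to N3 and at 11.91, 0 and 0 in G1 to G3. It was high in the libraries where Igfbp4 held its largest shares of the pool, N1 and G1. Igfbp1 and Igfals, the acid-labile subunit of the circulating IGF complex, were at 0 throughout. Among 12 further proteins with the IGF-binding-protein N-terminal domain, 10 were tested and none had separate groups. The highest were Ctgf, at 11.92 to 13.93 in N1 to N3 and 12.20 to 12.49 in G1 to G3, Cyr61, at 11.15 to 12.75 and 10.87 to 11.56, and Crim1, at 9.86 to 10.99 and 8.88 to 11.60. Their ranges overlapped between the groups.

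The pappalysins, proteases that cut IGFBP-4 and IGFBP-5, were little detected. Pappa was at 0, 4.83 and 2.46 in normal libraries and at 0 in all glioma libraries, and Pappa2 was at 0 in all 6. Stc1, which encodes a stanniocalcin that inhibits PAPP-A, was at 11.11, 6.33 and 7.04 in N1 to N3 and at 7.71, 10.71 and 8.25 in G1 to G3. Plat, the tissue plasminogen activator, was at 10.32 to 12.09 and at 7.53 to 12.65. Of the 8 tested genes in this list, Timp1, a metalloproteinase inhibitor, was the 1 gene wholly higher in glioma, at 0 in every normal library and at 7.26, 5.97 and 11.30 in G1 to G3. The lowest value above 0 in N1 exceeds those of G1 and G2, so the groups are no longer separate once values below it are set to it. Ctsd, the lysosomal protease cathepsin D, was the 1 gene wholly lower, at 11.86 to 12.06 in N1 to N3 and 10.53 to 11.84 in G1 to G3, a gap of 0.02. Together Timp1 and Ctsd were 25.0% of the tested genes in this list, against 13.3% over all genes. No gene of the list passed the limma test.

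Of 16 receptor adaptors and inhibitors, 14 were tested, 2 were wholly higher and 1 wholly lower. Together these were 21.4% of those tested, against 13.3% over all genes. Socs3, a feedback inhibitor of cytokine and insulin receptor signalling, was at 8.41, 4.83 and 5.07 in N1 to N3 and at 8.79, 9.06 and 11.60 in G1 to G3. Nedd4, a ubiquitin ligase that regulates the IGF1R adaptor GRB10, was at 8.89 to 9.91 and at 10.02 to 12.40. Ptpn11, the phosphatase SHP2, was at 11.48 to 11.68 and at 9.86 to 11.34. Grb10, itself an imprinted gene, was at 10.89, 10.44 and 10.63 in N1 to N3 and at 13.75, 12.11 and 9.75 in G1 to G3, highest in G1 as Igf2 was. Socs2 was at 11.52 to 12.77 and at 9.53 to 12.58. Irs1 was at 0, 4.97 and 3.77 against 6.79, 4.38 and 7.61, and Irs2 was above 0 only in G1, at 1.81. None of these genes passed the limma test.

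Downstream, the AKT branch had 2 wholly higher and 1 wholly lower of 21 tested genes, and the RAS and MAPK branch 0 and 1 of 9. These were 14.3% and 11.1% of the tested genes, near the 13.3% over all genes. Akt1 was at 8.91, 10.73 and 10.54 in N1 to N3 and at 10.86, 11.85 and 11.73 in G1 to G3, a log2 difference of 1.42 (SE 0.63, limma adjusted p = 0.875). Rheb, the GTPase that activates mTOR, was at 0, 7.33 and 7.56 against 8.18, 9.43 and 10.70. Pik3cb, a catalytic PI3K subunit, was at 9.02 to 9.41 and at 6.93 to 8.53. Mapk3, which encodes ERK1, was at 13.83, 13.20 and 13.23 in N1 to N3 and at 12.52, 12.18 and 10.93 in G1 to G3, a difference of -1.55 (SE 0.53, limma adjusted p = 0.875). Tsc2 was at 7.71, 13.09 and 12.98 in N1 to N3 and at 10.88, 11.80 and 11.83 in G1 to G3, so its order between the groups depends on N1. Gsk3b, at 11.52 to 12.35 and 8.56 to 12.58, and Nras, at 11.20 to 13.16 and 12.07 to 13.14, were also among the highest genes of these branches, and both overlapped between the groups.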

How the data were processed

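The libraries were made from Trizol-extracted total RNA by Lexogen's QuantSeq method, per the labels' protocols. The submitters' processing notes name Bowtie2, edgeR and mm10 with neither roles nor versions. The counting tool, strand setting and annotation were not given in the sources used here. The deposited log2 values, 1 per gene symbol and library, were read from the values as log2(x + 1) of quantile-normalized values: the maximum of 20.85 is the same in each library, and 100% of back-transformed non-zero values lie within 0.02 of a multiple of 1 divided by 6. Quantile normalization removes library totals and widens the gap between 0 and the lowest value.

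Groups came from the sample titles. Genes reaching 1 after back-transformation in 3 or more libraries entered a limma fit (limma 3.58.1, R 4.3.3, mean trend, group only, 4 residual degrees of freedom), with Benjamini-Hochberg adjustment over all 11862 genes and a threshold of 0.05. Differences are glioma minus normal. Sequences and positions come from RefSeq tables (GRCm38.p6, the same build as mm10), where all 9 members were found.

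The members and lists were chosen with earlier results of these data known. Named genes are the members, the 3 highest genes of each pathway list and up to 3 per direction with groups that do not overlap, the 3 highest of marker lists and the 5 genes closest to Igfbp4; some of these genes are not reported here. Other genes named (Pappa, Pappa2, Irs1, Irs2, Igf2os, Ins2, Myh11, Des, Kcnj8, Vtn, Pdgfrb, Cspg4, Adgre1, P2ry12, Fbln1, Postn, Thy1, Ogn, Folr1, Kcne2, Tubb3, Gad1, Slc17a7, Snap25, Dcx, Otx2 and Sox2) were chosen after their values were seen. Alternatives changed the filter, the treatment of zeros, the pseudocount (16), the scaling, the variance prior, the weights, the label number as a block and the libraries included.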

Additional observations from a re-analysis of the deposited data

How the results depend on the processing

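No gene passed the limma threshold without a filter, with the shared floor, over genes above 0 in all 6 libraries, with a pseudocount of 16, with centring, with a replicate block or without any single library. Without the mean trend 15 genes passed, none of them in the pathway lists. With limma's array weights 322 passed (2.71% of genes), among them 3 of 65 pathway genes, Insr, Socs3 and Timp1; the weight estimation stopped before its tolerance was met, and the cause was not tested. Genes with no overlap numbered 820 higher and 756 lower. The higher count was 491 with the shared floor and 297 over genes above 0 in all libraries, where fewer genes were compared. Leaving out each library gave 920 to 1744 higher and 810 to 2406 lower genes, both highest without N1, and a smaller group overlaps less often by construction. With the label number as a block 0 genes passed, as without it, and 610 against 509 had an unadjusted p under 0.05. Deviations of same-numbered libraries correlated at 0.19, 0.15 and 0.06, so the numbers were not taken as pairs. These numbers are those of the titles; the column headers number N2 and N3 as 1 and 2 and give the other libraries no number, so no block could be made from them. By the titles, N3 correlated better with G2 (0.19) than with its own number.

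For the 5 members above 0 in all libraries, differences were not computed with array weights or without the mean trend. In every other alternative run the differences kept their sign except for Igfbp7, from -0.38 without G3 to 2.70 without G1. They ranged from 2.00 to 4.44 for Igfbp4, 1.79 to 3.41 for Igfbp3, 0.54 to 4.37 for Igfbp5 and 0.41 to 0.93 for Igf1r. Among named pathway genes, leaving out single libraries turned the sign for 7 genes. The range was 0.52 (without G1) and 0.07 (without N3) to -0.84 for Crim1, 0.28 (without N1) to -0.72 for Ctgf, and -0.18 (without N2) and -0.17 (without G2) to 2.21 for Stc1. It was 0.98 (without G1) to -1.58 for Plat, 0.46 (without G1) to -1.06 for Socs2, -1.53 (without N1) to 1.16 for Tsc2 and 0.25 (without G3) to -1.76 for Gsk3b. The median share of the pool was 2.22% in N1 to N3 and 10.5% in G1 to G3 for Igfbp4 and 85.7% and 69.1% for Igfbp7. With a library left out it was 2.19% to 21.8% and 7.24% to 31.3% for Igfbp4 and 64.9% to 85.8% and 40.3% to 74.8% for Igfbp7. Depth is unknown, so a gene listed at 0 cannot be told from one below the lowest value of its library.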

Other observations

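Most of the neuronal markers examined stood highest in G1, the library with the highest Igf2. Tubb3, a neuronal tubulin, was at 11.98 there and at 0 to 6.76 in the other libraries. Dcx, a microtubule protein of migrating neuroblasts, was at 11.89 there and at 0 to 7.85 elsewhere. Meg3, a maternally expressed imprinted noncoding RNA, was at 12.77 there and at 7.32 to 9.23 elsewhere. Dcx is from the list of glioma or neural progenitor markers. Of the neuronal list, Gad1 and Slc17a7 were not highest in G1, at 2.22 and 0 there and at 3.42 and 4.90 in N2. All other neuronal markers were at their highest in G1, Snap25 only just, at 5.69 against 5.61 in N2. Tubb3, Dcx, Sox2, Gad1, Slc17a7 and Snap25 were chosen after their values were seen. Neuronal markers above 0 numbered 3, 9 and 9 of 9 in N1 to N3 and 8, 3 and 3 in G1 to G3, and they held 0.0857% of the library sum in G1 and at most 0.0071% elsewhere. Astrocyte markers above 0 numbered 4 to 7 of 8 in every library, and oligodendrocyte lineage markers 1 to 6 of 8. Markers of glioma or neural progenitor cells numbered 5, 4 and 6 of 8 in N1 to N3 and 8, 6 and 5 in G1 to G3, with summed levels of 0.0906%, 0.336% and 0.309% and of 0.13%, 0.256% and 0.289%, lowest of the glioma libraries in G1. Nes was at 9.53 in G1 and at 10.16 to 10.73 in the other libraries. Sox2 was at 7.92, 5.53 and 8.47 in G1 to G3 against 0, 0 and 1.22. Which cells carried them was not tested.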
